A study of Citrus trifoliata with 2 samples.

Results

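Organelle proteases were followed in buds of Citrus trifoliata, the trifoliate orange, a deciduous relative of the cultivated citrus species. They are the FtsH, Clp, Deg and Lon proteases, the presequence protease and the processing peptidases of chloroplasts and mitochondria. Members were the unigenes, which are assembled transcript models, whose best Swiss-Prot hit carried one of 8 protein-name phrases. The phrases were cell division protease ftsH, ATP-dependent zinc metalloprotease FTSH, ATP-dependent Clp protease, chaperone protein Clp, protease Do-like, Lon protease, presequence protease and processing peptidase. They picked out 79 of 35775 unigenes. All 79 reached 1 RPKM (a read count scaled by unigene length and library size) in at least 1 library, as did 34255 of all unigenes. One library came from the precocious trifoliate orange, labelled as the citrus mutant, and 1 from normal trifoliate orange, labelled as the wild type. Both were poly(A)-selected RNA from untreated 2-year-old trees, taken after self-pruning of the spring flush from the terminal bud and the 5 buds that follow it. The sources used here do not give the number of trees behind each library or the lesion of the mutant. With 1 library per group there was no replicate, so no difference could be tested and no p-value is given. The fold of each unigene comes from its reads and the library totals, which in units of 1000 reads were 10037 for the mutant and 9995 for the wild type. Paired values give the mutant first. The range in parentheses after a fold is an exact 95% Clopper-Pearson interval, which covers counting error only and not differences between trees.

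Chloroplasts and mitochondria keep proteases of bacterial descent that remove damaged or surplus proteins. FtsH proteases are membrane-anchored ATPases with a zinc-dependent protease domain. In the thylakoid they degrade photodamaged D1 protein of photosystem II, and loss of certain members gives variegated leaves in Arabidopsis. The Clp protease is a soluble barrel of ClpP and ClpR subunits that is fed by ring-shaped unfoldases. Deg proteases cut without ATP, Lon proteases combine ATPase and protease in 1 chain, and processing peptidases cut the targeting peptides off proteins after import, which presequence protease then degrades.

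The names were compared with a second annotation in the same table, which assigns clusters of orthologous groups (COG). Of the 79 members, 70 had such an assignment. All 20 FtsH members with one were ATP-dependent Zn proteases, all 14 assigned ClpP and ClpR members were protease subunits of Clp, and all 10 assigned Deg members were trypsin-like proteases with a PDZ domain. Both ClpS hits were assigned to an uncharacterized conserved protein. Swiss-Prot E-values were at most 1e-10 for 77 members and higher for 2. Best hits were plant proteins for 63 members, cyanobacterial for 7, from other bacteria for 7 and from a red alga for 2. A hit to a bacterium shows the nearest listed protein and does not give the plant gene. The 79 unigenes shared 56 Swiss-Prot entries, and 20 entries were hit by 2 or 3 unigenes. Such unigenes can be pieces of 1 transcript or separate genes, and near-identical copies may share reads, so unigenes are not independent genes.

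Organelle protease transcripts were abundant in buds and slightly lower in the mutant library. They took 0.965% of the mutant reads (0.959% to 0.971%, exact binomial interval) and 1.11% of the wild-type reads (1.10% to 1.11%), with the sum at 96824 reads against 110627, 1.15-fold lower (1.14 to 1.16). The median member stood at percentile 86.5 of mean RPKM among all kept unigenes, and 32 of 79 were in the top 10%. The differences were small. On the log2((mutant RPKM + 1) / (wild-type RPKM + 1)) scale, 0 of 79 members were at least 2-fold higher and 0 at least 2-fold lower, where 8.61% of all kept unigenes were at least 2-fold higher and 5.31% lower. Those shares came mostly from low levels. Of the 2948 higher and 1818 lower kept unigenes, 2844 and 1802 averaged below 20 RPKM, where 13 members stood. From 20 to 100 RPKM, 88 of 8076 kept unigenes were at least 2-fold higher and 9 lower. The added 1 shrinks ratios of weakly read unigenes, and on the raw counts 1 member was past 2-fold higher and 2 past 2-fold lower. Of the 34255 kept unigenes, 4629 were past 2-fold higher on raw counts and 3627 past 2-fold lower. Log2 ratios of the members ran from −0.98 to 0.80. Their median was −0.15 (−0.19 to −0.064, the 95% order-statistic interval over members) beside 0.048 for all kept unigenes. Negative ratios were found for 59 of 79 members (74.7%) and for 46.2% of all kept unigenes. The counting interval lay below 1 for 41 members and above 1 for 2, whereas it lay below 1 for 14.4% and above 1 for 19.8% of all kept unigenes. Deep unigenes have narrow intervals. Among those with at least 1000 reads over both libraries, the interval lay below 1 for 36 of 57 members (63.2%) and for 29.4% of 6171 kept unigenes. In whole buds, fewer cells of a type and less of a transcript per cell cannot be told apart.

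**Figure D1:**
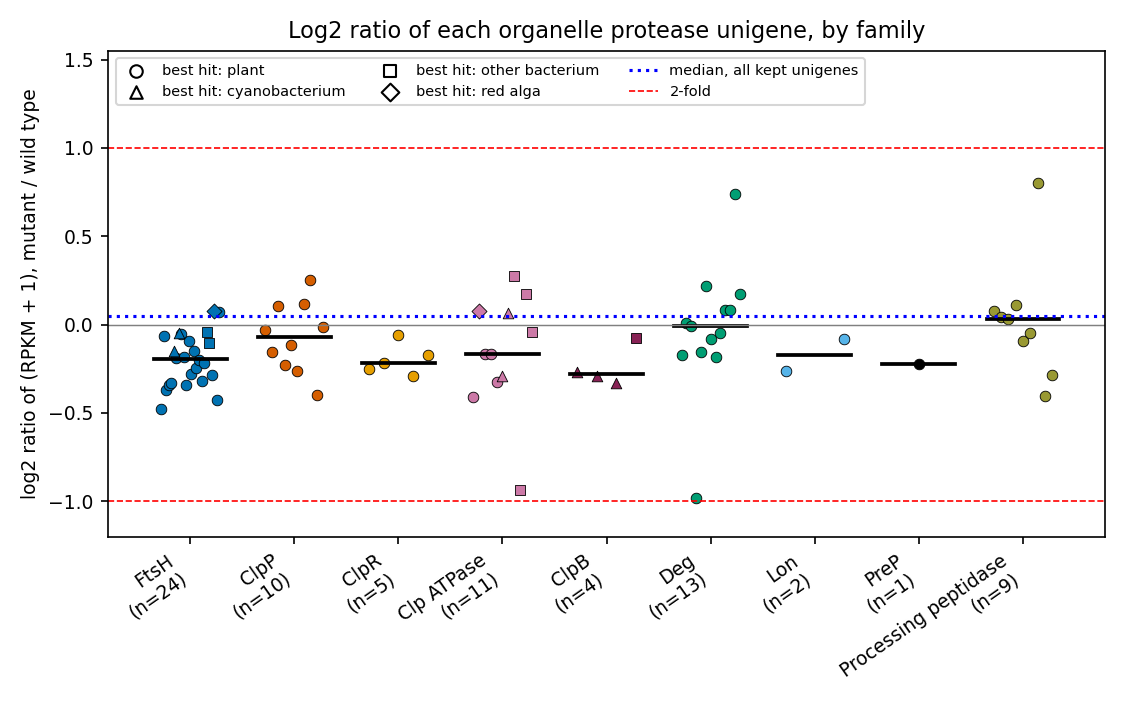
Each point is 1 of the 79 unigenes, placed by family (x axis) and by log2 ratio of RPKM + 1, mutant over wild type (y axis); black bars are family medians, point shapes give the organism of the best hit and the blue dotted line is the median of all kept unigenes. All points lie between the red 2-fold lines, and 22 of 24 FtsH members and all 5 ClpR members lie below 0.

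FtsH was the family with the most members and reads. Its 24 unigenes had a median log2 ratio of −0.20 (−0.32 to −0.093), with 22 negative, 17 intervals below 1 and 0 above 1. Summed over the family, FtsH was at 36764 reads against 43235, 1.18-fold lower (1.16 to 1.20). The members named chloroplastic carried the larger difference: their 14 unigenes together were at 24720 reads against 30098, 1.22-fold lower (1.20 to 1.24), while the 4 named mitochondrial were at 4856 reads against 5443, 1.13-fold lower (1.08 to 1.17). These intervals do not overlap, although they cover counting error only.

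The strongest single protease transcript in both libraries was a hit to rice FtsH2. In Arabidopsis, FtsH2 and FtsH8 are the type B and FtsH1 and FtsH5 the type A subunits of the thylakoid complex. Unigene6697 stood at 701 RPKM in the mutant and 891 RPKM in the wild type. Another hit to the same rice entry, Unigene7372, stood at 537 against 675 RPKM, and both pieces were lower by nearly the same factor, 1.27 and 1.26. Their sum was at 9899 reads against 12432, 1.26-fold lower (1.23 to 1.30). The Arabidopsis FtsH8 hit was at 967 reads against 1219, 1.27-fold lower (1.16 to 1.38). On the type A side, the Arabidopsis FtsH1 hit, Unigene26800, was at 1011 reads against 1405, 1.40-fold lower (1.29 to 1.51), the largest fold of any FtsH unigene. The rice FtsH1 entry, at 2131 reads against 2713, 1.28-fold lower (1.21 to 1.35), was hit by pieces of very different level. Unigene35686 stood at 683 against 885 RPKM and was at 1988 reads against 2564, 1.30-fold lower (1.22 to 1.37), while Unigene45 stood at 60.6 against 63.4 RPKM with an interval that included 1. The FtsH1 and FtsH8 hits were short: Unigene26800 had 277 bases, Unigene35686 290, Unigene45 235 and the FtsH8 hit, Unigene35209, 250. Short pieces with different best hits can also come from 1 transcript, so these hits need not be separate genes.

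Other chloroplast-named FtsH hits had negative ratios, with 1 exception. The alfalfa FtsH hit, Unigene7835, was at 1946 reads against 2605, 1.34-fold lower (1.27 to 1.43) and the pepper hit was at 1753 reads against 2131, 1.22-fold lower (1.15 to 1.30). The tobacco FtsH hit, Unigene16000, was that exception, at 1509 reads against 1431, 1.05-fold higher (0.976 to 1.13), and its interval included 1. Its level of 363 against 346 RPKM was in the range of the hits above, so FtsH unigenes of like level differed among themselves. FtsH9 hits were at 1844 reads against 2112, 1.15-fold lower (1.08 to 1.22), rice FtsH7 was at 985 reads against 1114, 1.14-fold lower (1.04 to 1.24) and the Arabidopsis FtsH7 hit was at 1348 reads against 1394, 1.04-fold lower (0.963 to 1.12). FtsH12, which in Arabidopsis sits in the chloroplast envelope with inactive FtsH relatives, was at 1327 reads against 1542, 1.17-fold lower (1.08 to 1.26).

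Mitochondrial FtsH proteases face either side of the inner membrane. FtsH4, which faces the intermembrane space, was at 1454 reads against 1656, 1.14-fold lower (1.07 to 1.23). FtsH10, of the matrix-facing type, was hit by 2 unigenes that together were at 1659 reads against 1933, 1.17-fold lower (1.10 to 1.25). The rice mitochondrial FtsH8 hit was at 1743 reads against 1854, and its interval ended just short of including 1. All 4 mitochondrial-named FtsH unigenes were thus lower by more than counting error. FtsH11, named as both chloroplastic and mitochondrial, was at 1236 reads against 1541, 1.25-fold lower (1.16 to 1.35). The 5 FtsH unigenes with bacterial or red algal best hits stood closer to equal as a group, at 5952 reads against 6153 and a mutant over wild-type fold of 0.963 (0.929 to 0.998). Among them the Aquifex FtsH entry, hit by Unigene4027 and Unigene17853, was at 3138 reads against 3307, 1.06-fold lower (1.01 to 1.11), with an interval that excluded 1.

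**Figure D2:**
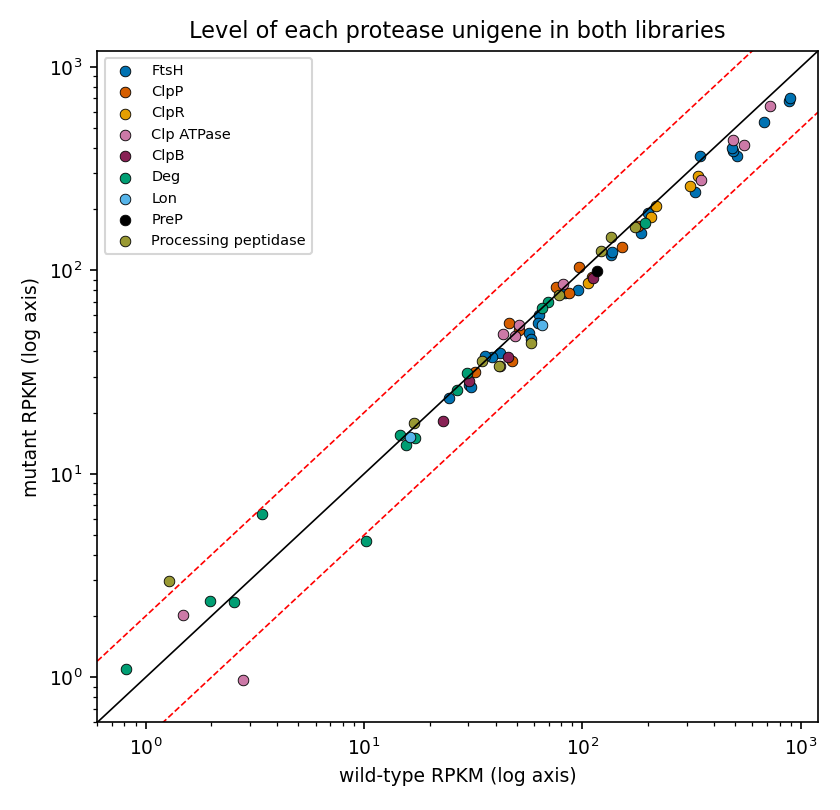
Each point is 1 member, with its RPKM in the wild-type library on the x axis and in the mutant library on the y axis, both on log axes; the solid line marks equal levels and the dashed lines 2-fold. The 12 members at 300 RPKM or more lie just below the line of equal levels except the tobacco FtsH hit, and the 3 points past the dashed lines are unigenes at or below 10.2 RPKM.

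The Clp core is built in plastids from active ClpP and inactive ClpR subunits, and its subunits were not all lower. The 15 ClpP and ClpR unigenes, with mitochondrial ClpP2 and the sweet orange clpP hits among them, had a median log2 ratio of −0.16. Their sum was at 17216 reads against 19058, 1.11-fold lower (1.09 to 1.13). All 5 ClpR unigenes had negative ratios, with a median of −0.22. ClpR3 was at 1290 reads against 1575, 1.23-fold lower (1.14 to 1.32). ClpR1 was hit by Unigene6911 at 260.4 against 310.1 RPKM and by Unigene8148 at 291 against 339 RPKM, the highest ClpR level, and together they were at 4395 reads against 5134, 1.17-fold lower (1.13 to 1.22). ClpR4 was at 1672 reads against 1878, 1.13-fold lower (1.06 to 1.21), while ClpR2 was at 2255 reads against 2338, 1.04-fold lower (0.982 to 1.10) with an interval that included 1.

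Among the ClpP subunits, ClpP5 had the highest level, 166 against 179.6 RPKM for Unigene8648 and 92.5 against 111 RPKM for Unigene17698. Its unigenes together were at 3468 reads against 3891, 1.13-fold lower (1.08 to 1.18), and ClpP4 was at 1086 reads against 1269, 1.17-fold lower (1.08 to 1.27). ClpP6 leaned the other way. Both of its unigenes had positive ratios and the entry was at 949 reads against 833, 1.13-fold higher (1.03 to 1.25), 1 of 2 entries of all 56 with an interval above 1. ClpP3 was level, at 1283 reads against 1279. The clpP entry of sweet orange is the subunit encoded by the chloroplast genome. It was hit by Unigene5354, which was at 105 reads against 139, 1.33-fold lower (1.02 to 1.73), and by Unigene13893 at 285 reads against 287. How well poly(A) selection captured transcripts of the chloroplast genome was not tested, so these reads may not measure the clpP level. Mitochondrial ClpP2 was also near 1, at 428 reads against 435.

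The unfoldases that feed the Clp core differed by kind. ClpC, the main stromal unfoldase, was the most abundant Clp transcript. The pea ClpC entry was hit by 3 unigenes, of which Unigene5383 was the highest at 643 RPKM in the mutant and 722 RPKM in the wild type, and together they were at 8170 reads against 9634, 1.18-fold lower (1.15 to 1.22). The tomato CD4B entry, a ClpC relative, was hit by Unigene17293 at 413 against 549.6 RPKM, which was at 4588 reads against 6081, 1.33-fold lower (1.28 to 1.38). All 4 chloroplast-named unfoldase unigenes had intervals below 1, and their sum was at 12758 reads against 15715, 1.24-fold lower (1.21 to 1.27). Unigene6403, a hit to a red algal clpC, was at 781 reads against 737, 1.06-fold higher (0.953 to 1.17).

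ClpX, the unfoldase that pairs with mitochondrial ClpP in plants, was matched through bacterial entries. Unigene9175 was at 1236 reads against 1088, 1.13-fold higher (1.04 to 1.23), the second entry with an interval above 1, and Unigene13263 was at 997 reads against 1024, 1.03-fold lower (0.944 to 1.13). A pair of weakly expressed hits to the ClpX of Aquifex, together at 57 reads against 82, 1.44-fold lower (1.02 to 2.06), differed in direction. Unigene33926 was at 19 reads against 54, 2.85-fold lower (1.66 to 5.10), the largest raw fold of any member, and Unigene24913 was at 38 reads against 28, 1.35-fold higher (0.808 to 2.29). ClpS, an adaptor that hands substrates to the unfoldase, had 2 hits, of which Unigene17389 was at 336 reads against 412, 1.23-fold lower (1.06 to 1.43) and Unigene16188 was at 571 reads against 542, 1.05-fold higher (0.931 to 1.18).

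ClpB proteins are unfoldases of the same superfamily that dissolve protein aggregates and do not feed a protease. All 4 ClpB unigenes had negative ratios, with a median of −0.28 and a sum that was at 6009 reads against 7164, 1.20-fold lower (1.16 to 1.24). Unigene9221 had the highest level, 91.2 against 112 RPKM, and was at 2960 reads against 3615, 1.23-fold lower (1.17 to 1.29). Unigene9929 was at 595 reads against 753, 1.27-fold lower (1.14 to 1.42). Unigene12546 was at 1380 reads against 1665, 1.21-fold lower (1.13 to 1.30), and Unigene18192 was at 1074 reads against 1131, 1.06-fold lower (0.972 to 1.15). These latter unigenes had weak hits for their length (E-values of 3e-20 and 5e-12 over 3660 and 3761 bases). Their names are thus less certain than those of the other ClpB unigenes, whose E-values were 0. Weak hits occurred in other families too, such as Unigene6403 (1e-11 over 910 bases) and the tobacco FtsH hit Unigene16000 (1e-15 over 414 bases).

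Deg proteases were close to equal in both libraries. Their 13 unigenes had a median log2 ratio of −0.0079, with 7 negative, 2 intervals below 1 and 0 above 1, and their sum was at 6723 reads against 6992, 1.04-fold lower (1.01 to 1.08). Deg1, the main lumenal member, had the highest level at 172 against 194 RPKM for Unigene8506, and the entry was at 2271 reads against 2527, 1.12-fold lower (1.06 to 1.18). Deg5 and Deg8, which act with Deg1 in the thylakoid lumen, were at 165 reads against 184, 1.12-fold lower (0.903 to 1.39) and at 253 reads against 288, 1.14-fold lower (0.962 to 1.36), and at these depths a difference of the size seen for Deg1 would not be detectable. Deg2, of the stromal side of the thylakoid, was matched by a deep unigene at 1480 reads against 1482 and by Unigene33832, which was at 46 reads against 100, 2.18-fold lower (1.52 to 3.17). The deep piece was equal within counting error and the weakly read one was not. Deg9, found in the nucleolus in Arabidopsis, was at 2037 reads against 1978, 1.03-fold higher (0.964 to 1.09). Mitochondrial Deg10 was at 307 reads against 288, 1.06-fold higher (0.901 to 1.25). Deg7 was matched by 2 long but weakly read unigenes, at 87 reads against 94 and 41 against 30. Deg14 had the largest positive ratio of the family in Unigene14945, at 30 reads against 16, 1.87-fold higher (0.986 to 3.67), and its interval included 1.

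Lon1, the mitochondrial matrix protease, stood at 53.9 against 64.9 RPKM (Unigene4228) and was at 1934 reads against 2320, 1.20-fold lower (1.13 to 1.28). The maize Lon2 hit, Unigene14335, also named mitochondrial, was at 522 reads against 552, 1.06-fold lower (0.940 to 1.20). Presequence protease 2, which degrades cleaved targeting peptides in both organelles, was a single unigene of 3751 bases, Unigene18176, at 99.5 against 116 RPKM, and was at 3746 reads against 4355, 1.17-fold lower (1.12 to 1.22).

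The mitochondrial processing peptidase, which in plants is built into the cytochrome bc1 complex of the respiratory chain, had nearly equal levels. Its alpha subunit was at 2518 reads against 2448, 1.02-fold higher (0.968 to 1.08). The beta subunit was at 3453 reads against 3530, 1.03-fold lower (0.979 to 1.08), and both intervals included 1. The beta unigene Unigene8099 had the highest level of the family, 163 against 174 RPKM. The 5 mitochondrial unigenes together were at 5971 reads against 5978 and the 4 plastid ones were at 1203 reads against 1373, 1.15-fold lower (1.06 to 1.24). On the plastid side, thylakoidal processing peptidase 2, which matures lumenal proteins, was at 581 reads against 710, 1.23-fold lower (1.10 to 1.37). The chloroplast processing peptidase PLSP1 was hit by 3 unigenes that did not go the same way, and the entry was at 622 reads against 663, 1.07-fold lower (0.958 to 1.20), with an interval that included 1. Unigene4458, the deepest, was at 500 reads against 514, 1.03-fold lower (0.911 to 1.17), Unigene26248 was at 108 reads against 143, 1.33-fold lower (1.03 to 1.72), and Unigene24073 was at 14 reads against 6, 2.32-fold higher (0.839 to 7.38). The 9 processing peptidases had a median log2 ratio of 0.030, the one positive family median. Its sign turned negative under 5 of the alternatives. It became −0.018 when ratios were centred on the median of all kept unigenes and −0.016 under trimmed mean scaling. It was −0.0079 with a minimum of 5 RPKM, −0.0079 over unigenes with at least 100 reads and −0.070 over the longest unigene of each entry.

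**Figure D3:**
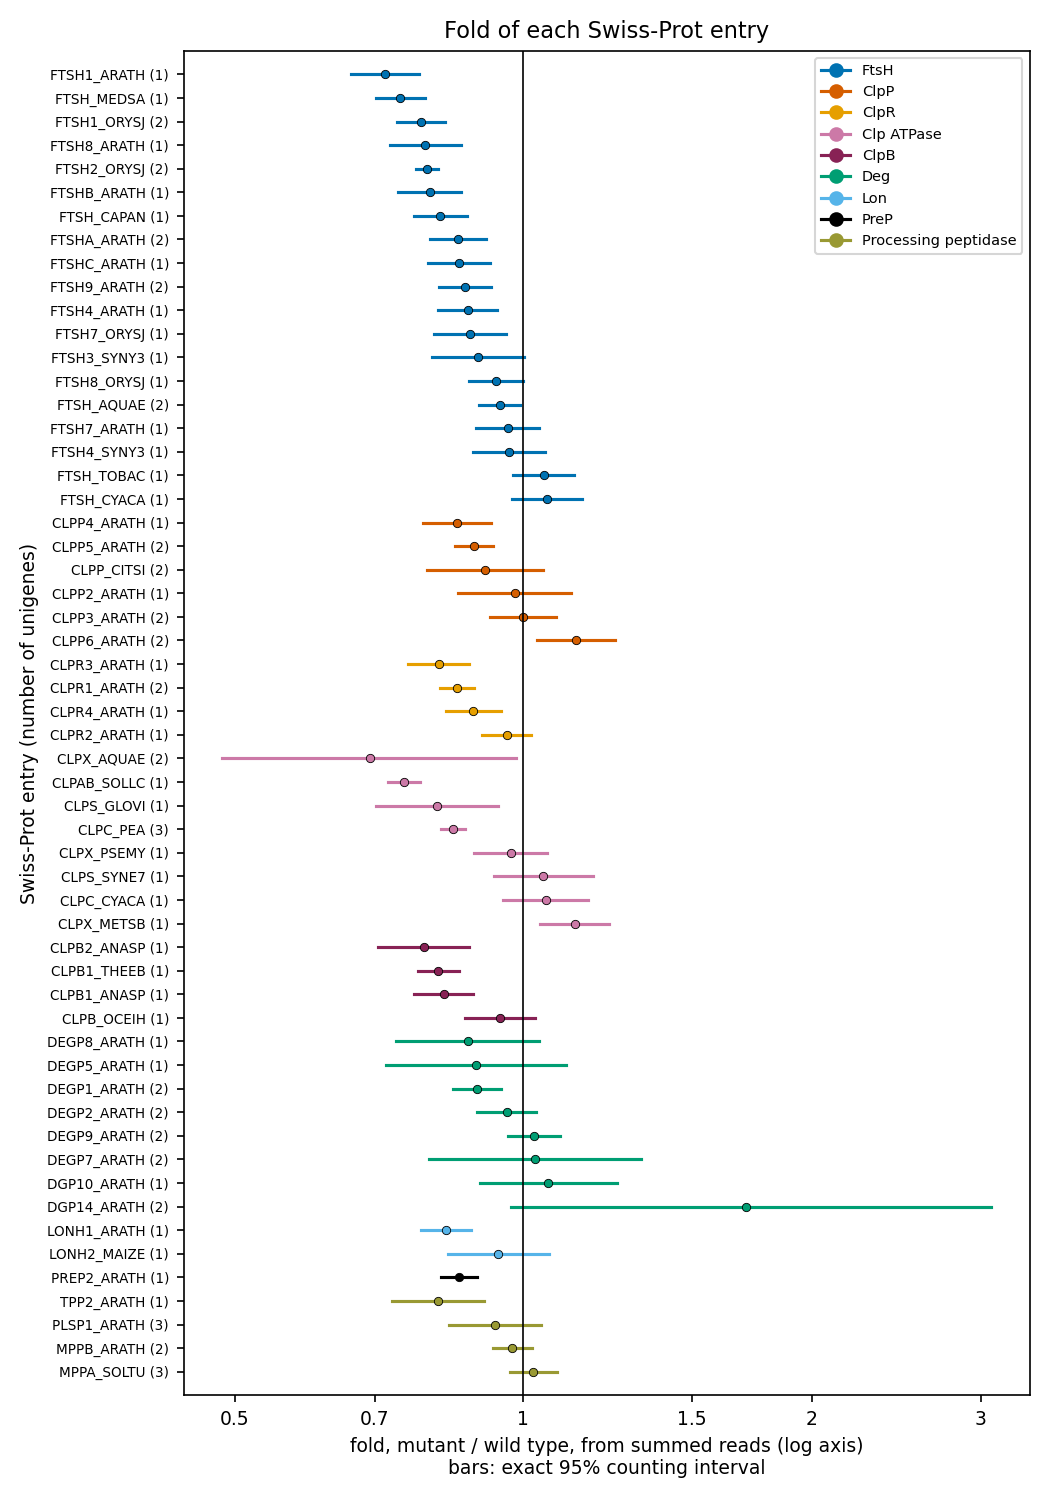
Fold of each of the 56 Swiss-Prot entries, mutant over wild type, from reads summed over its unigenes (x axis, log scale), with the number of unigenes after the entry code on the y axis; bars are exact 95% counting intervals. The interval lies below 1 for 30 entries, above 1 for 2 (ClpP6 and a bacterial ClpX) and includes 1 for 24.

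Where an entry was hit by several unigenes, their ratios were compared. Of 20 such entries, all unigenes had negative ratios in 10, all had positive ratios in 3 and both signs were found in 7. The entries with negative ratios throughout included rice FtsH1 and FtsH2, FtsH9, FtsH10, pea ClpC, ClpP5 and ClpR1. ClpP6, Deg14 and the alpha subunit of the mitochondrial processing peptidase were positive throughout. Levels of pieces of 1 entry differed by up to 36.0-fold in mean RPKM, for PLSP1, so not all pieces need be the same transcript.

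Members named chloroplastic were lower as a group than those named mitochondrial. Over the 40 chloroplast-named members the median log2 ratio was −0.18 (−0.28 to −0.15), with 34 negative, 26 intervals below 1 and 1 above 1. Over the 13 mitochondrial ones it was −0.081 (−0.20 to 0.074), with 8 negative, 6 intervals below 1 and 0 above 1. Of all kept unigenes, 14.4% had an interval below 1. The intervals of these medians overlapped, while the sums were at 59294 reads against 69964, 1.18-fold lower (1.17 to 1.20) for chloroplast and at 14018 reads against 15016, 1.08-fold lower (1.05 to 1.10) for mitochondrion. Place was not separated from family. The 13 mitochondrial members included 5 processing peptidases with a median of 0.041 and 4 FtsH unigenes with a median of −0.20. Other kept unigenes with a chloroplast name also leaned lower, with a median of −0.071 over 1123 unigenes and a sum at 1025258 reads against 1096303, 1.07-fold lower (1.07 to 1.08). Of these 1123, 362 had an interval below 1 and 152 above 1. Other mitochondrial names had a median of −0.0051 over 778, with 119 intervals below 1 and 140 above 1. Among unigenes of at least 100 RPKM on average, the 24 chloroplast-named proteases had a median of −0.24 (−0.33 to −0.17) beside −0.11 (−0.12 to −0.084) for 368 other chloroplast-named unigenes. At that level the interval lay below 1 for 21 of the 24 and for 181 of the 368. Unigenes are not replicates of a library, so these medians describe the pair of libraries.

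The difference was larger at higher levels, but level was not separated from place and family. All 12 members at 300 RPKM or more were named chloroplastic and came from 9 entries of FtsH, chloroplast unfoldases and ClpR1. Members below 20 RPKM had a median log2 ratio of 0.074 (n = 13), those from 20 to 100 RPKM −0.064 (n = 37), those from 100 to 300 RPKM −0.17 (n = 17) and those at 300 RPKM or more −0.33 (n = 12). All kept unigenes followed a shallower course over the same ranges, with medians of 0.10, 0.019, −0.0063 and −0.071. At 300 RPKM or more, 11 of 12 members had an interval below 1, and the tobacco FtsH hit was the exception. Of all 598 kept unigenes at that level, 283 had an interval below 1 and 148 above 1.

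**Figure D4:**
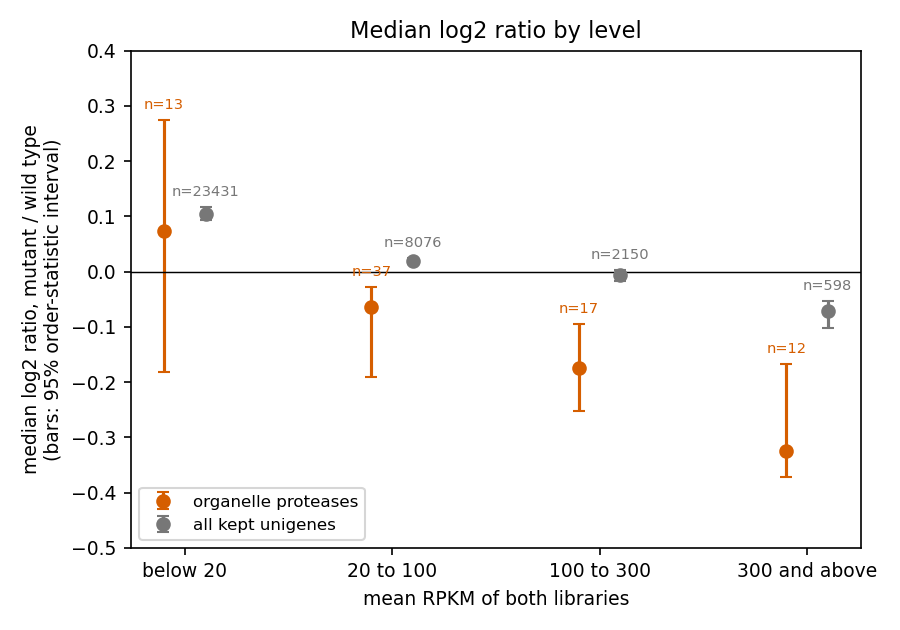
Median log2 ratio, mutant over wild type (y axis), of the organelle proteases (orange) and of all kept unigenes (grey) in 4 ranges of mean RPKM (x axis); bars are 95% order-statistic intervals over unigenes and n is the number of unigenes. The intervals of the proteases and of all kept unigenes do not overlap in the 3 upper ranges.

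The position of a unigene in the numbering moved with its ratio. Unigene lengths along the numbering fell into 8 runs, each ending in an abrupt drop of length. All kept unigenes had a median log2 ratio of 0.025 in the first 4 runs (numbers up to 18261), 0.66 in the fifth and sixth (18262 to 28106) and −0.55 in the last 2. Of the members, 68 lay in the first 4 runs, where their median was −0.15, 5 in the fifth and sixth with a median of 0.22, and 6 in the last 2 with a median of −0.36. All 3 members past 2-fold on raw counts were outside the first 4 runs. Those 4 runs held 534 of the 4629 kept unigenes past 2-fold higher on raw counts and 238 of the 3627 past 2-fold lower. Unigene33832 (Deg2) and Unigene33926 (ClpX) lay in the seventh run and Unigene24073 (PLSP1) in the fifth, and their direction was that of the run. The FtsH1 hit Unigene26800 lay in the sixth run and was lower, against the direction of that run. The rice FtsH1 hit Unigene35686 and the FtsH8 hit Unigene35209, with log2 ratios of −0.37 and −0.34, lay in the eighth run and went with its direction, the median of that run being −0.54. The part of the numbering in these ratios was not tested.

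**Figure D5:**
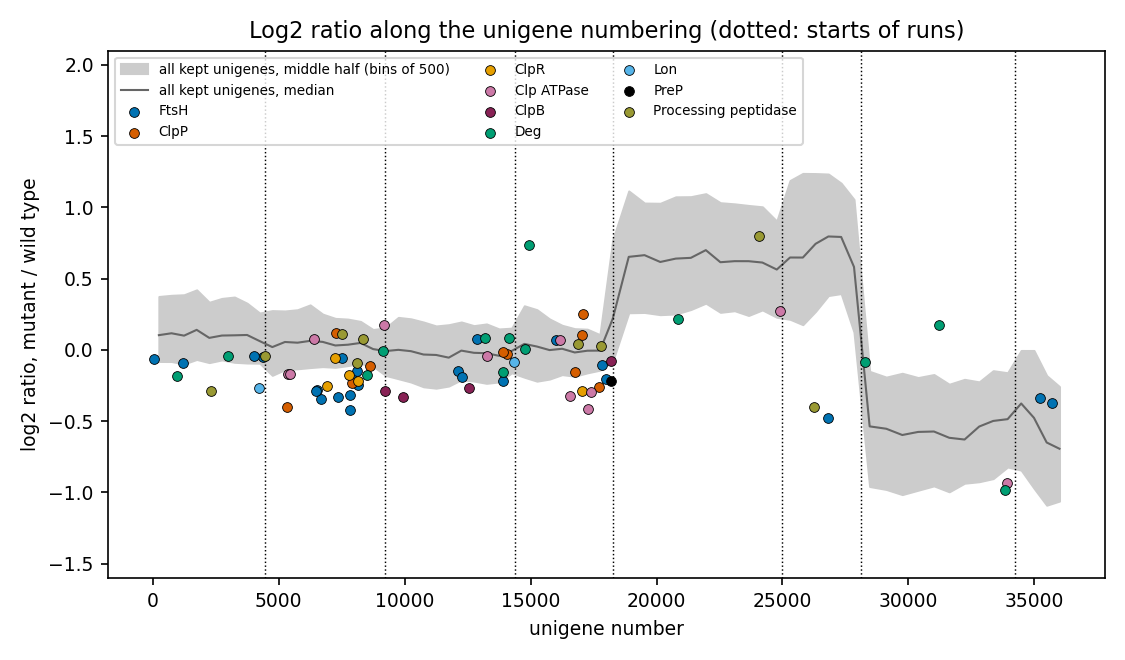
Log2 ratio of each member (points, y axis) by unigene number (x axis), over the median (line) and interquartile range (grey band) of all kept unigenes in bins of 500; dotted lines are starts of runs. Most members lie in the first 4 runs, where the band stays near 0, and the lowest 2 points lie in the seventh run, where the line is below 0 too.

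Neighbouring parts of organelle protein handling were counted over the kept unigenes of lists of Swiss-Prot names, members left out. Chloroplast import, which holds the Toc receptors and channel, had a median log2 ratio of −0.17 (−0.36 to 0.25) over 9 unigenes, with 6 intervals below 1 and 2 above 1. Organelle chaperonins and Hsp70 had a median of −0.10 (−0.24 to −0.0030) over 28, with 13 below and 4 above. Photosystem II, whose D1 protein is a substrate of FtsH, had a median of −0.040 (−0.19 to 0.069) over 20, with 8 below and 5 above. Plastid ribosomal proteins had a median of −0.063 (−0.10 to −0.030) over 64, with 21 below and 4 above. All 4 medians were negative, and how they differed from the −0.18 of the chloroplast-named proteases was not tested.

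Mitochondrial import, prohibitins and the proteasome had positive medians, while the cytochrome bc1 complex and the remaining organelle proteases had negative ones. Mitochondrial import had a median of 0.14 over 29 unigenes, with 7 intervals above 1 and 3 below. The 3 prohibitins, which form rings that hold mitochondrial FtsH, had a median of 0.17. The cytochrome bc1 complex had a median of −0.016 over 11. The proteasome, the protease of cytosol and nucleus, had a median of 0.070 over 65, with 19 above and 7 below. The remaining organelle proteases, such as rhomboid proteases and inner membrane peptidases, had a median of −0.058 over 22, with 4 above and 2 below. Past 2-fold was 1 of these 22, Unigene23307 at 108 reads against 43, a hit to rhomboid protein 2, a name that gives no organelle. Also past 2-fold were 1 higher and 1 lower in mitochondrial import, 1 lower in photosystem II and 1 higher among plastid ribosomal proteins. The lists of chloroplast import, chaperonins, prohibitins, bc1 complex and proteasome held 0 in either direction. Over all kept unigenes the shares were 8.61% higher and 5.31% lower, and from 20 to 100 RPKM they were 88 and 9 of 8076.

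Among lists of markers of cell types that a bud can hold, only dividing cells had a median whose interval excluded 0. Light-harvesting proteins, which mark leaf mesophyll, had negative ratios in 14 of 19 unigenes, a median of −0.13 (−0.20 to 0.025) and 32254 reads against 34379. Markers of dividing cells, the MCM helicases and cyclins, had positive ratios in 39 of 43 and a median of 1.14 (0.545 to 1.46). They were at 3759 reads against 2483, with 25 at least 2-fold higher and 1 lower. Of all kept unigenes, 8.61% were at least 2-fold higher and 5.31% lower. The dividing-cell markers were weakly read, with median levels of 5.33 RPKM in the mutant and 1.84 RPKM in the wild type. Below 20 RPKM on average, 2844 of 23431 kept unigenes were at least 2-fold higher. The place of these markers in the unigene numbering was not counted. Xylem proteinases totalled 3222 reads against 1219 over 8 kept unigenes, of which 1 was at least 2-fold higher and 3 lower, with a median of −0.19, and phloem lectins 2127 against 1514 over 10 with a median of −0.060. One dividing-cell marker and 1 xylem marker had 0 reads in a library. The part of cell makeup in the lower protease levels was not tested.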

How the data were processed

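Bud RNA was sequenced from 1 mutant and 1 wild-type library, grouped by the source names in the labels. Per the file headers, the deposited table gives raw read counts per unigene, RPKM computed by the authors, and unigene length in bases. RPKM was recomputed from counts, lengths and totals, and 100% matched within 1e-04 in both libraries. Swiss-Prot E-values are likewise deposited. The assembler, aligner, counting tool and strandedness were not given in the sources used here. Unigenes with an RPKM of at least 1 in at least 1 library were kept. Ratios were log2((mutant RPKM + 1) / (wild-type RPKM + 1)), and called at 2-fold. Folds used raw counts and library totals with exact 95% Clopper-Pearson intervals, and PCR copies are not independent molecules. Medians carry order-statistic intervals. No count model or test was run, since there were no replicates. Runs of unigene numbers were found from length alone (window of 200 unigenes, drop of at least 2 times in median length, at least 400 unigenes apart).

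The members, families, lists and the rule for runs were chosen with earlier results of these data known. The kinds of organism of the best hits were assigned after the hits were seen, and the pattern for dividing cells was narrowed after it was seen to match cyclin-dependent kinases. Named were, per family, the member with the highest mean RPKM and the 2 with the largest absolute ratio, every member past 2-fold, and every Swiss-Prot entry whose summed reads have an interval that excludes 1; the other entries were named after their values were seen. Intervals and folds were tested on simulated data. Python 3.11.15, pandas 2.3.3, NumPy 2.4.6, SciPy 1.17.1 and matplotlib 3.10.9 were used.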

Additional observations from a re-analysis of the deposited data

How the results depend on the processing

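In all, 11 alternatives and 2 more chosen after seeing the data were computed. The median log2 ratio of the members was negative in each of them where it was computed. It moved out of its interval to −0.20 with centring on the median of all kept unigenes and to −0.20 with trimmed mean scaling (shifts of 0.048 and 0.045). Counts past 2-fold rest on few reads. With a pseudocount of 0.1, and likewise with raw count ratios, 1 member was at least 2-fold higher and 2 lower. Centring and trimmed mean scaling each gave 1 lower, Unigene33832. Members with an interval above 1 numbered 1 over plant best hits. Of 62 summary values under alternatives, 53 stayed within their limits and 9 did not. Of the named unigenes, 1 left its counting interval, Unigene33926 at −0.38 with a pseudocount of 5. No paired analysis was possible because each group holds 1 library, and no library could be left out. Depth limits Deg7, Deg14 and the weak ClpX and PLSP1 hits most. How reads of near-identical copies were counted is not known.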
